A study of Vitis vinifera with 6 samples.

Results

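The PR10 cluster of grapevine (Vitis vinifera) is a tandem run of pathogenesis-related protein 10 genes on chromosome 5. Its members were taken as 7 loci, VIT_05s0077g01530, VIT_05s0077g01540, VIT_05s0077g01550, VIT_05s0077g01560, VIT_05s0077g01570, VIT_05s0077g01580 and VIT_05s0077g01600 (the shared prefix VIT_05s0077 is dropped hereafter), chosen by locus number, with no threshold on a measured value, though after earlier results of these arrays were known. Of the 7, only g01530 (PR10.1) and g01550 are named as PR10 proteins in the study's tables, tables drawn from its own calls on the same arrays, and the other 5 count as members by the locus list alone. All 7 were on the array, out of 34369 features, each with 1 probe. Gene expression was measured in young leaves of cv. Thompson Seedless plantlets propagated in vitro and grown under 16 h of light at 25 °C. Plants given as 6 weeks old in the labels and as 5 weeks old in the study's methods were vacuum infiltrated with Agrobacterium tumefaciens C58C1 carrying 35S:NAC61 (OX.NAC61) or the pK7WG2 vector with a non-coding sequence (control), and material was collected 7 days later. Infiltrated leaves are a mosaic in which the constitutive 35S promoter acts only in cells reached by the bacterium, and the control leaves received the bacterium too, so no uninfected leaf was compared. Per the labels, 7 plants were infiltrated with 35S:NAC61 and 5 with the control. The 3 OX.NAC61 plants hybridised were selected for the highest NAC61 expression, and were set against 3 control plants.

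PR10 proteins are small intracellular proteins of the Bet v 1 fold, named after the major birch pollen allergen, with a hydrophobic cavity that binds ligands. Some members of the family also act as ribonucleases. They accumulate in many plants after pathogen attack, wounding or osmotic stress, and in grapevine they are encoded by tandem copies that arose by duplication. NAC61 is a transcription factor of the plant-specific NAC family, and the comparison asked which members of the cluster changed in leaves that overexpressed it.

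In leaf RNA, PR10.1 (g01530) and g01600 were called higher in OX.NAC61, at 3.90-fold and 3.03-fold. The neighbours g01540 and g01550 had estimates above 0 that did not pass the test. Little separated g01600 from g01550, at limma adjusted p-values of 0.0982 and 0.1025. Estimates of g01560 and g01570 were close to 0, and that of g01580 was below 0. Signal was taken as log2 relative to the 75th percentile of each array, and calls were made in limma where the fold was above 1.5 and the p-value, adjusted by Benjamini-Hochberg over all 27052 features tested, was below 0.1. By this rule 2 of 7 members were called higher and 0 lower, where 3.09% of all tested features were called higher, 3.72% lower and 6.81% in either direction. The median log2 fold change was 1.13 over the 7 members and -0.05 over all tested features. An unadjusted limma p under 0.05 was reached by 5 of 7 members, g01580 with its estimate below 0 among them, and by 5513 of the 27052 features. Without control replicate 2, and without OX.NAC61 replicate 3, 0 members were called, and 1 member was called without control replicate 1 or 3. In each of the 2 fits with 0 members called, 3 of 7 had an unadjusted limma p under 0.05, as did 3683 and 4342 of all features. Calls over all features also fell from 1843, to 71 without control replicate 2 and 328 without OX.NAC61 replicate 3. They were 1031 and 220 without control replicates 1 and 3. All 7 probes were well above background on all 6 arrays, so that no member entered the test through 1 group alone, and 0 of their spots were saturated or outliers.

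**Figure D1:**
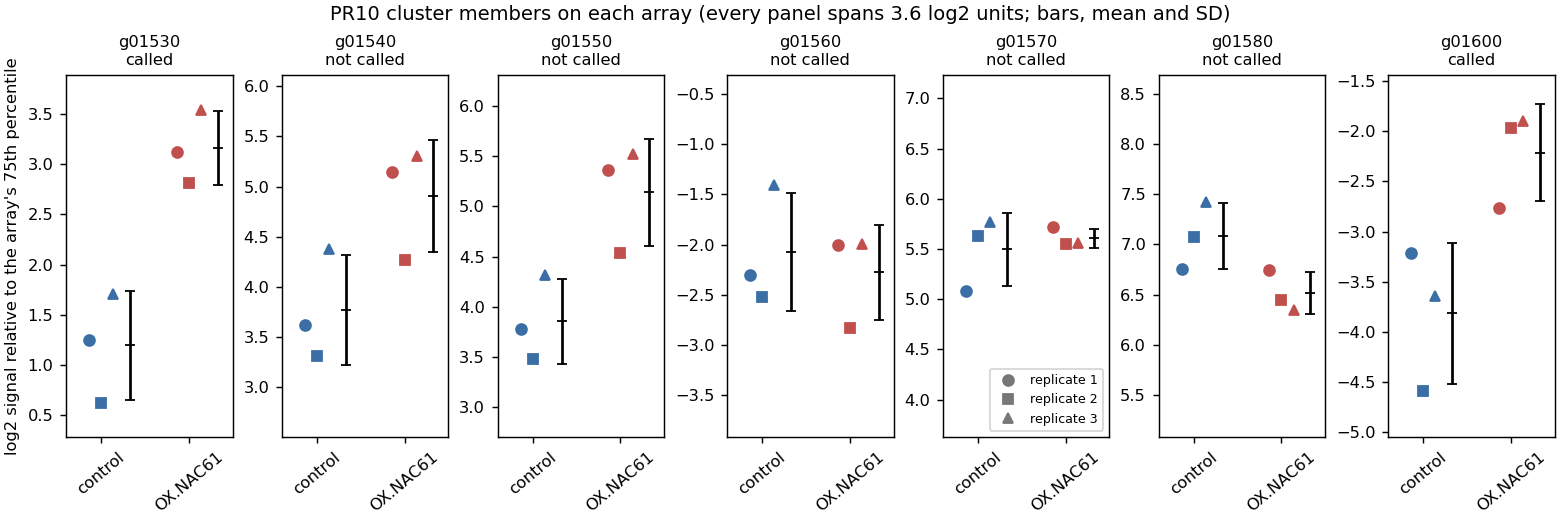
Scaled log2 signal (y axis, relative to the 75th percentile of each array) of the 7 PR10 members in the 3 control (blue) and 3 OX.NAC61 (red) arrays, with the mean and SD of each group. The groups do not overlap in g01530, g01550 and g01600, where OX.NAC61 is higher, and in g01580, where it is lower.

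Some facts of the arrays bear on every value. The OX.NAC61 arrays were brighter as a whole, with a 75th percentile of the processed signal of 1772 to 2568.7 against 888.55 to 1613 in controls. The scan of OX.NAC61 replicates 2 and 3 took place on a later day than that of the other 4 arrays, so that scan day and treatment are partly confounded. A limma fit blocked on scan day called 13 features in place of 1843, and 0 of the 7 members, of which 2 had an unadjusted p under 0.05. NAC61 itself, at -2.48, -2.21 and -2.44 in controls and -1.15, -0.66 and -0.47 in OX.NAC61, rose by 1.62 ± 0.21 (SE) on the log2 scale (limma adjusted p = 0.0285, n = 3 per group), although its level had been used to select these plants. That call was lost with scan day as a block (1.23, adjusted p = 0.198), when the slide on record was the block (0.104), with backgrounds as given (0.88, 0.256) and without control replicate 2 (0.125) or 3 (0.105). Leaf identity was checked with 7 photosynthesis genes, RuBisCO, its activase, LHCB and PSAK genes, which were well above background on every array. These 7 genes were chosen by annotation in the study's tables, and 6 were also called lower in the deposited values. Their counts are therefore not independent of the study's own calls. Here 6 were called lower in OX.NAC61, against 3.72% of all tested features. In 7 the groups did not overlap, with OX.NAC61 lower, against 16.3% of features (median log2 fold change -1.07). Their summed relative signal was 122 to 132.4 in controls and 47.88 to 70.54 in OX.NAC61. The part of this shift in the PR10 values was not tested. In leaf RNA of this kind, fewer cells that express a gene and less RNA per cell cannot be told apart.

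PR10.1, which the study's tables name among PR10 proteins, had the largest estimate of the 7. Its scaled log2 signal was 1.25, 0.62 and 1.71 in control replicates 1, 2 and 3, and 3.12, 2.81 and 3.54 in OX.NAC61 replicates 1, 2 and 3. Every OX.NAC61 array stood above every control array, by at least the gap between 1.71 and 2.81. The log2 fold change was 1.96 ± 0.32 (SE), with a 95% confidence interval of 1.18 to 2.74 (limma adjusted p = 0.0408). Its estimate stayed between 1.68 and 2.22 in all 19 alternatives, while the adjusted p ranged from 0.0151 to 0.292. The call was lost with scan day as a block (1.93, adjusted p = 0.292), without control replicate 2 (0.142), without OX.NAC61 replicate 3 (0.125) and in 1 background setting.

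The second called member, g01600, was near the threshold. Its scaled log2 signal was -3.21, -4.59 and -3.64 in controls and -2.77, -1.97 and -1.90 in OX.NAC61. Control replicate 2 was the lowest array, and the gap between the groups was the step from -3.21 to -2.77. The log2 fold change was 1.60 ± 0.41 (SE; limma adjusted p = 0.0982). In the deposited log2 values, which the authors had normalised between arrays, it was 0.79 (adjusted p = 0.115), and with a normexp background correction that kept the local backgrounds as given it was 0.27. Without any one of the arrays other than OX.NAC61 replicate 1 it was not called, at 1.21 to 1.90. In all, 14 of the 18 alternatives with a test left it uncalled, the scan day block among them (1.05, adjusted p = 0.569).

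The adjacent copies g01540 and g01550 had near-parallel profiles over the arrays. The scaled log2 signal of g01550, annotated as a PR10 protein in the study's tables, was 3.77, 3.48 and 4.32 in controls and 5.36, 4.53 and 5.53 in OX.NAC61. Its groups did not overlap, although control replicate 3 came close to OX.NAC61 replicate 2. The log2 fold change of 1.28 ± 0.33 (SE; 95% confidence interval 0.48 to 2.09) missed the threshold at a limma adjusted p of 0.1025. It was called in the deposited values, at 1.49 (adjusted p = 0.0713). For g01540 the signal was 3.62, 3.31 and 4.38 in controls and 5.15, 4.27 and 5.30 in OX.NAC61. Here OX.NAC61 replicate 2 fell below control replicate 3, so the groups overlapped. The log2 fold change was 1.13 ± 0.38 (SE), with a 95% confidence interval of 0.22 to 2.04 (limma adjusted p = 0.167).

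The next loci of the run gave a different picture. The scaled log2 signal of g01560 was -2.30, -2.52 and -1.40 in controls and -2.01, -2.83 and -1.996 in OX.NAC61. The groups overlapped fully, with control replicate 3 the highest array and OX.NAC61 replicate 2 the lowest. Its log2 fold change was -0.20 ± 0.37 (SE), with a 95% confidence interval of -1.09 to 0.68 (limma adjusted p = 0.807). For g01570 the signal was 5.08, 5.63 and 5.77 in controls and 5.71, 5.55 and 5.56 in OX.NAC61, and the 3 OX.NAC61 arrays lay within the range of the controls. The log2 fold change was 0.11 ± 0.21 (SE), with a 95% confidence interval of -0.39 to 0.61 (limma adjusted p = 0.814). This estimate also depended on the scaling. The deposited values put it at 0.50 (adjusted p = 0.148) and quantile normalisation at 0.59 (adjusted p = 0.130).

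For g01580 the direction depended on the scaling. Its scaled log2 signal was 6.76, 7.08 and 7.42 in controls and 6.75, 6.45 and 6.34 in OX.NAC61, where every OX.NAC61 array was lower, though control replicate 1 and OX.NAC61 replicate 1 differed by almost nothing. The log2 fold change was -0.57 ± 0.21 (SE; 95% confidence interval -1.09 to -0.06), not past the test (limma adjusted p = 0.205). It was 0.12 in the deposited values and 0.09 after quantile normalisation. Before scaling, the processed signal was 174870, 179270 and 152350 in controls and 190290, 224160 and 177570 in OX.NAC61. The unscaled groups overlapped and the mean was higher in OX.NAC61. That mean carries the greater brightness of the OX.NAC61 arrays as a whole, so no direction is read from it. None of the g01580 spots was marked as saturated, and the lowest saturation value recorded for any of the arrays was 778910. Over the members, 3 of 7 had groups that did not overlap with OX.NAC61 higher, against 9.91% of all tested features, and 1 of 7 with OX.NAC61 lower, against 16.3%. In the deposited values 2 of 7 members, g01530 and g01550, were called higher, against 2.03% of the probes in that table.

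**Figure D2:**
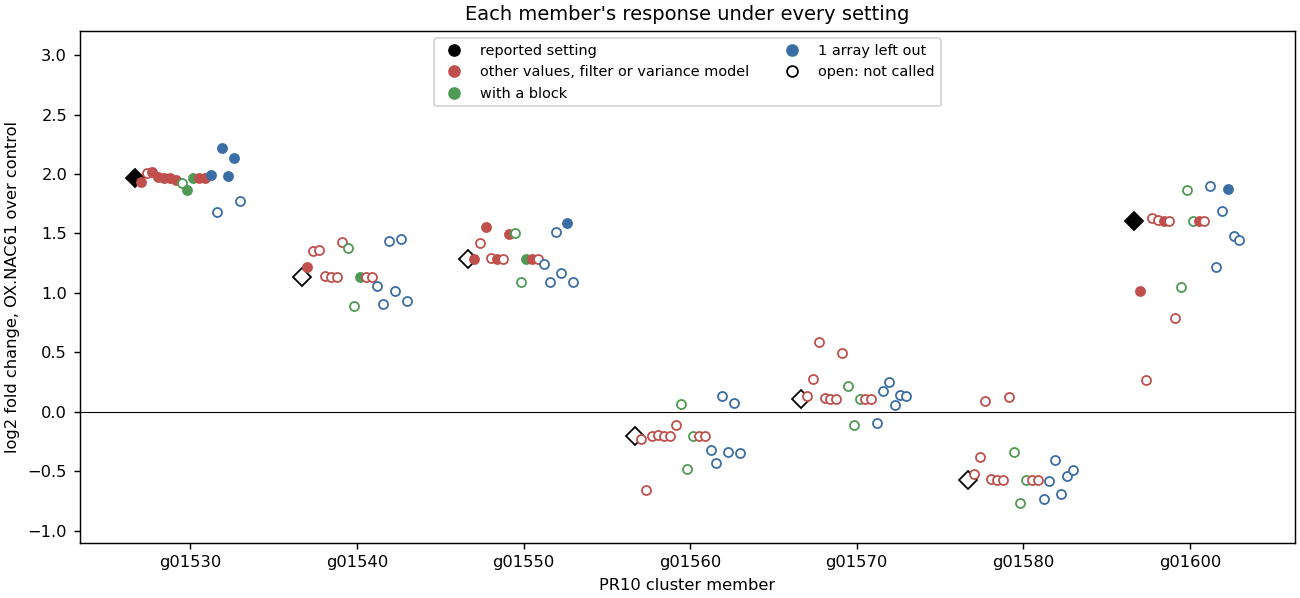
Log2 fold change (y axis) of each PR10 member under the reported setting (diamonds) and the 18 alternatives with a test, coloured by kind, with filled symbols where the member was called. The estimates of g01530 lie between 1.68 and 2.22, those of g01560, g01570 and g01580 fall on both sides of 0, and those of g01600 run from 0.27 to 1.90.

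The size of the response was also compared between members, as the difference of their log2 values within each array. Of 21 pairs, 15 had differences that did not overlap between the groups. Each member enters several pairs, so the pairs are not independent and 1 shifted member can account for many of them. How often pairs of other features fail to overlap was not tested, so no excess over the array is read from this count. An exact two-sided permutation test over the 6 arrays (20 regroupings) cannot go below p = 0.1 with 3 against 3, which these 15 pairs reached, at 0.14 after adjustment over the 21 pairs, so no difference could pass a threshold of 0.05. The response of PR10.1 exceeded that of g01580 by 2.54, that of g01560 by 2.17 and that of g01570 by 1.85 on the log2 scale. It exceeded those of g01540 and g01550 by 0.83 and 0.68, and in the deposited values by 0.51 and 0.45. PR10.1 and g01600 differed by 0.36, with overlapping arrays (exact permutation p = 0.4), but by 1.16 in the deposited values and by 0.91 and 1.75 under the 2 normexp settings. The response of g01540 was smaller than that of g01550, with a difference of -0.15.

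Several members also varied together within the groups, g01560 among them although its response differed from that of its neighbours. After the mean of each group was removed, the correlation over the 6 arrays was 0.993 between g01540 and g01550, 0.987 between g01540 and g01560, and 0.877 between PR10.1 and g01560. In these 4 members control replicate 3 was the highest control and OX.NAC61 replicate 2 the lowest OX.NAC61 array. Thus g01560 followed the array-to-array profile of its neighbours while its group means differed by only -0.20. The pair g01570 and g01580 had a correlation of 0.895 with each other and between 0.0875 and 0.598 with the 4 members above. The profile of g01600 correlated with PR10.1 at 0.552 and with g01570 at -0.613. These values describe 6 arrays that share leaf, array signal and scaling, and whether probes of such close copies also bind transcripts of each other was not tested.

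**Figure D3:**
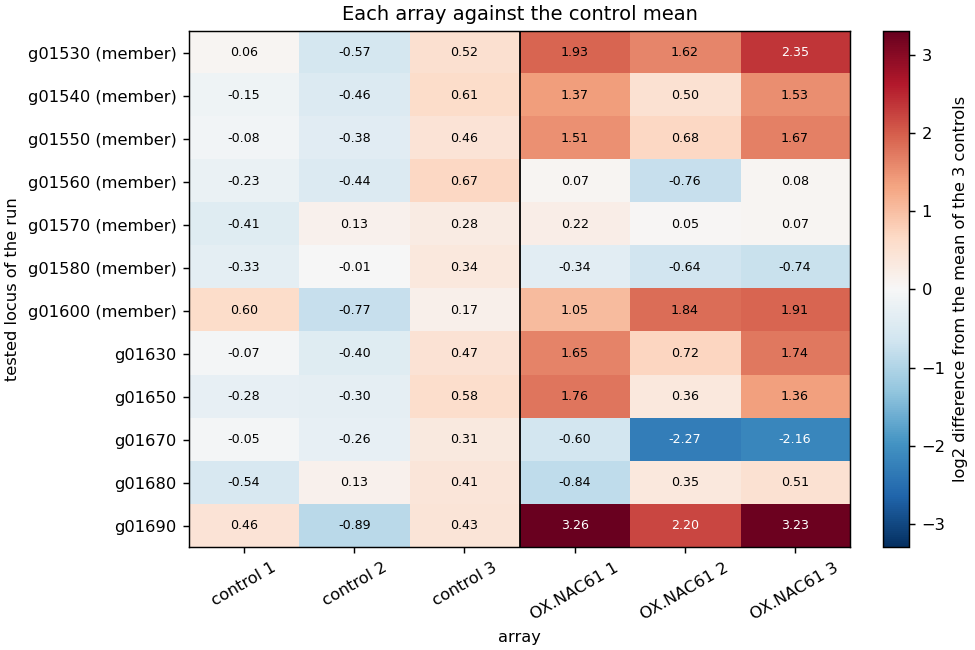
Difference of each array (columns) from the mean of the 3 controls, on the log2 scale, for the 12 tested loci of the run (rows, members marked). In OX.NAC61 replicates 1, 2 and 3 PR10.1 stood 1.93, 1.62 and 2.35 above the control mean, whereas g01560 stood at 0.07, -0.76 and 0.08.

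With the arrays of the first scan day alone, OX.NAC61 replicate 1 lay above all 3 controls for PR10.1 (1.93 above their mean on the log2 scale), g01540 (1.37), g01550 (1.51) and g01600 (1.05). For g01560, g01570 and g01580 this array lay 0.07 above, 0.22 above and -0.34 from the control mean, and not above all controls. This is 1 array against 3 and has no test.

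The run continues past the members to g01690, with 8 further loci on the array. Of these, 5 were tested and 2 were called higher, against 3.09% of all tested features. Those 2, g01630 and g01690, are the loci that the study's tables annotate as PR10 proteins. These tables list genes the study had called on the same arrays, so the annotation is not independent of the rise. The scaled log2 signal of g01690 was -3.78, -5.12 and -3.80 in controls and -0.97, -2.03 and -1.01 in OX.NAC61, which gave the largest estimate of the run, 2.90 ± 0.46 (SE; 7.45-fold, limma adjusted p = 0.0388). It was lower in the deposited values, at 1.60, and 1.25 in the lowest alternative, and was not called without control replicate 2 or 3, without OX.NAC61 replicate 3 or with scan day as a block. For g01630 the signal was 2.31, 1.98 and 2.84 in controls and 4.03, 3.10 and 4.11 in OX.NAC61, with a log2 fold change of 1.37 ± 0.35 (SE; limma adjusted p = 0.0976), a call lost without any one control or without either OX.NAC61 replicate 1 or 3. Its profile within the groups was the closest to that of g01550 among all pairs of the run (correlation 0.998).

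The other 3 tested loci of the run were not called and had estimates in either direction. The locus g01650 had a log2 fold change of 1.16 (limma adjusted p = 0.194), and g01680 of 0.01 (0.996). For g01670 the scaled log2 signal was 3.63, 3.42 and 3.99 in controls and 3.08, 1.41 and 1.52 in OX.NAC61. All OX.NAC61 arrays were lower, those of the second scan day by far the most, and the log2 fold change was -1.68 ± 0.46 (SE; limma adjusted p = 0.117). On the first scan day alone the difference was -0.60. The 3 untested loci were g01590, g01620 and g01660, which were not well above background on any control array.

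**Figure D4:**
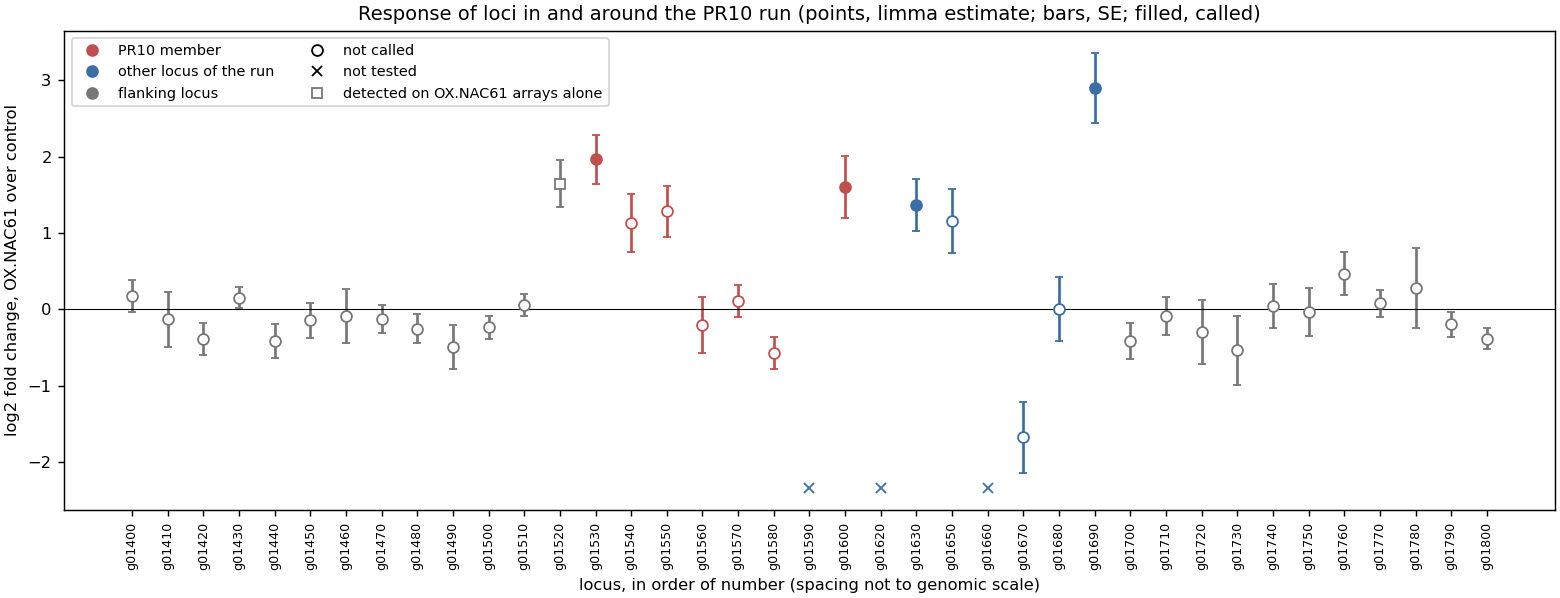
Log2 fold change with its SE (y axis) of loci in order of their number, for PR10 members (red), other loci of the run (blue) and flanking loci (grey), filled where called, with crosses at the bottom for loci not tested. A square marks g01520, which was detected only on OX.NAC61 arrays. Called loci detected in both groups sit at g01530, g01600, g01630 and g01690, and the other 23 flanking loci lie between -0.54 and 0.47.

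Beyond the run, 24 loci on both sides (g01400 to g01520 and g01700 to g01800) were in the fit. Of the 23 other than g01520, limma called 0 (1 had an unadjusted p under 0.05), with estimates between -0.54 and 0.47. Over all tested features 6.81% were called. The locus g01520, which borders PR10.1 and has no name in the sources used here, was not well above background on any control array and well above on all 3 OX.NAC61 arrays. It entered the fit through the OX.NAC61 arrays alone, so no call is read from it and only a bound is given, at least 2.07-fold higher in OX.NAC61, with the dim group set at the higher of its own signal and the lowest signal well above background on each array. Its fitted estimate turned to -0.18 and -1.44 under the 2 normexp background settings.

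A second run of the Bet v 1 superfamily, on chromosome 1 (VIT_01s0011g05060 to g05180), includes major latex-like proteins. Of its 11 loci on the array 8 were tested, 0 were called higher and 2 were called lower. The shares over all tested features were 3.09% and 3.72%. Both called loci, VIT_01s0011g05060 and VIT_01s0011g05090, are annotated as major latex-like proteins and were in the study's own list from these arrays. The signal of VIT_01s0011g05090 was 2.78, 3.04 and 2.98 in controls and 2.01, 2.09 and 2.21 in OX.NAC61, a log2 fold change of -0.83 ± 0.14 (SE; limma adjusted p = 0.0441). For VIT_01s0011g05060 the log2 fold change was -1.36 ± 0.24 (SE; limma adjusted p = 0.0454), with groups that did not overlap. Both calls were lost without control replicate 2 or 3, without OX.NAC61 replicate 2 or 3, and with scan day as a block. The median over the 8 was -0.26, with 3 estimates above 0. The highest of these, VIT_01s0011g05150, was at 1.17 ± 0.38 (SE; limma adjusted p = 0.161), with OX.NAC61 above control on every array.

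Pathogenesis-related genes of other classes likewise changed in either direction. Of 5 on the array 4 were tested. Of those, 2 were called higher and 1 lower, against 3.09% and 3.72% of all tested features, and these 3 were in the study's list too. A beta-1,3-glucanase, an enzyme that cleaves fungal cell wall glucan (VIT_05s0077g01150), was at 0.68, -0.02 and 0.32 in controls and 2.83, 2.74 and 3.72 in OX.NAC61, and rose by 2.77 ± 0.32 (SE) on the log2 scale (6.83-fold, limma adjusted p = 0.0253), a call lost without control replicate 2 (0.115) and with scan day as a block (0.222). The PR4 gene VIT_14s0081g00030, of the chitin-binding class, rose by 1.75 ± 0.43 (SE; limma adjusted p = 0.0930), but was not called when any one of the 6 arrays was left out (adjusted p = 0.118 to 0.232) or with scan day as a block (0.350). A PR1 gene, VIT_11s0052g01620, was at 0.16, 0.02 and -0.31 in controls and -0.91, -1.49 and -1.69 in OX.NAC61, with a log2 fold change of -1.32 ± 0.25 (SE; limma adjusted p = 0.0526). Of the 6 fits that left out 1 array, it was called only in that without OX.NAC61 replicate 1, and it was not called with scan day as a block (-0.87, adjusted p = 0.335). The other PR1 gene tested, VIT_03s0088g00710, had an estimate of 0.98 ± 0.54 (SE) and overlapping groups (limma adjusted p = 0.373). Of the 5 calls in these other lists, 0 remained without control replicate 2 (6 of the tested genes had an unadjusted limma p under 0.05), 3 were made without control replicate 1, and 1 was made without control replicate 3, OX.NAC61 replicate 2 or OX.NAC61 replicate 3. Over all features, the fits without control replicates 1, 2 and 3 gave 1031, 71 and 220 calls. Those without OX.NAC61 replicates 2 and 3 gave 705 and 328.

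The mean profile of the 7 members, each centred on its own mean, was -0.46, -0.74 and 0.05 in controls and 0.45, 0.09 and 0.60 in OX.NAC61. This mean covers members with estimates above and below 0. Of 26974 other features compared with it over the 6 arrays, the closest was VIT_17s0000g00940, with a root mean square difference of 0.0625 on the log2 scale. Its log2 fold change was 0.84 ± 0.25 (SE; limma adjusted p = 0.1385), which was not called. The next was VIT_00s0262g00120, annotated as receptor kinase RK20-1, at 0.0940, whose log2 fold change was 0.94 ± 0.24 (SE; limma adjusted p = 0.0976). The remaining 3 of the 5 closest, with differences of 0.1002 to 0.119, have no name in the sources used here and were not called.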

How the data were processed

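Cy3-labelled leaf RNA of 3 control and 3 OX.NAC61 plants, 1 plant per array, was hybridised to one-colour Agilent arrays. Each deposited scanner file held intensity values written by Agilent Feature Extraction, version 10.5.1.1, with background already subtracted from the processed signal and no normalisation between arrays. The authors also deposited log2 values made with limma for 26157 probes, those well above background on at least 4 arrays, each column ranked as the background-subtracted median signal of its array (lowest rank correlation 1) and with medians of 9.6086 to 9.6191. The offset and normalisation behind them are not given in the sources used here.

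Here log2 processed signal minus the 75th percentile of each array was used, without control spots, with outlier spots set to missing. Of 34369 features, 27053 were well above background on at least 3 of 6 arrays, and 27052 were tested by the moderated test of limma 3.58.1 under R 4.3.3, two-sided and without covariates. Calls needed a fold above 1.5 and a p-value, adjusted by Benjamini-Hochberg, below 0.1, as in the study's methods. The script was tested on simulated data. The number of arrays limits the precision, and p-values measure the spread between these plants.

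The text names the 7 members, g01630 and g01690, NAC61, the gene with the smallest p and any called gene of each other list, and the closest profiles, of which those with an annotation or the smallest difference are named. The values of g01650, g01670, g01680 and VIT_01s0011g05150 were added after they were seen. Members and lists were chosen with earlier results of these data known, and annotations came from the study's tables. The RefSeq table matched 0 features of the array by identifier, the members included, although it holds 8 symbols starting PR10. Samples were not treated as paired by replicate number, and whether the numbers mark pairs was not tested. Over the tested features, correlations of same-numbered deviations were 0.205, -0.044 and 0.212. With replicate number as a block, the SE was smaller for g01530 (0.157 in place of 0.323), g01540, g01550 and g01560. It was larger for g01570, g01580 and g01600. Alternatives were other background corrections (normexp with an offset of 50), normalisations, filters, blocks, variance models and thresholds, the deposited values, and leaving out each array. The values of the first scan day alone, and the pair differences on other scales, were added after seeing the data.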

Additional observations from a re-analysis of the deposited data

Results flagged for a closer look

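Signal in loci outside the tests was seen at g01590, where 2 OX.NAC61 arrays and 0 control arrays were well above background, and at g01660, where 1 OX.NAC61 array and 0 control arrays were. Neither reached the minimum of 3 arrays, and no fold is given for either.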

How the results depend on the processing

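Every alternative kept the direction of g01530, g01540, g01550 and g01600, while their calls depended on the setting, and the cause was not tested. Against 1843 calls over all features, 2 members, 2 further loci of the run and 5 genes of the other lists, normexp with replaced outlier backgrounds gave 5310 and 4 members, with a median over all features of -0.21 in place of -0.05 and 15.6% of calls higher in place of 45.4%. With backgrounds as given, limma called 0 of all, of the members, of the run and of the lists (3306 features, 3 members, 2 run loci and 6 list genes at an unadjusted p under 0.05, median -0.50). Scan day as a block gave 13, 0, 0 and 0 calls (2993, 2, 3 and 5 at an unadjusted p under 0.05, 76.9% of calls higher), and the recorded slide, which 2 arrays share at the same position, gave 589, with 1 member and 3 list genes. The replicate block gave 1020 calls and 3 members (g01530, g01540 and g01550), and the deposited values gave 1157 calls. Quantile normalisation gave 1 run locus, and 1 member and 1 run locus each came from the percentile over probes detected on every array, from no filter and from robust variances. An adjusted p below 0.05 left 657 calls, 1 member, 1 run locus and 3 list genes. Leaving out 1 array gave 71 to 3225 calls, 0 to 2 members, 0 to 2 run loci and 0 to 4 list genes. Signs changed for g01560 (0.0662 with the scan day block and on scan day 1 alone, and -0.43 to 0.13 with 1 array left out, above 0 at 0.0716 without OX.NAC61 replicate 2 and at 0.13 without control replicate 3), g01570 (-0.11 with the slide block, and -0.0934 without control replicate 1 to 0.25 without control replicate 3), g01580 (0.0895 after quantile normalisation, 0.12 deposited) and g01520 (-0.18 and -1.44 with normexp).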
